A study of Homo sapiens with 30 samples.

Results

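The 9 genes described here mark or drive the transition between an epithelial and a mesenchymal cell state, and they were followed in HepG2, an immortal line derived from a human liver tumour. They are the repressors ZEB1, ZEB2, SNAI1 and SNAI2, the epithelial surface genes CDH1 and EPCAM, and the mesenchymal genes CDH2, VIM and FN1. Each was found in the raw count matrix by matching its gene identifier to its symbol, and 9 of 60107 gene rows were taken. RNA from 30 cultures was sequenced from the 3′ end of polyadenylated transcripts (QuantSeq), so that a transcript gives about 1 place to be counted whatever its length and levels of different genes can be set side by side. Cells were transfected with an oligonucleotide and, 24 h later, received Sorafenib, a multikinase inhibitor used against liver cancer, at 10 µM or its solvent dimethyl sulfoxide (DMSO). In the 6 h experiment the oligonucleotide was an inhibitor control (IC) or an inhibitor of miR-200c-3p (I200c), and in the 24 h experiment it imitated miR-222-5p (M222), miR-512-3p (M512) or neither (mimic control, MC), where the hours are the time under Sorafenib or DMSO. These 5 transfections with 2 treatments gave 10 groups of 3 biological replicates. All groups share the cell line and the transfection reagent, no group was left untransfected, and time and kind of oligonucleotide cannot be told apart.

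Epithelial cells are held together by E-cadherin, the product of CDH1, and carry the adhesion molecule EpCAM. The zinc finger proteins ZEB1, ZEB2, SNAI1 (Snail) and SNAI2 (Slug) bind E-box motifs and repress CDH1, and cells that pass to a mesenchymal state gain N-cadherin (CDH2), the intermediate filament vimentin (VIM) and fibronectin (FN1). The microRNAs (miRNAs) of the miR-200 family bind the 3′ untranslated regions (UTRs) of ZEB1 and ZEB2 and lower their expression, while ZEB proteins repress the miR-200 genes, so each side of this loop restrains the other.

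The mature miRNAs that the oligonucleotides block or imitate are shown first, because their seeds (bases 2 to 8, in capitals) determine which of the 9 genes they could bind. The sequences come from RefSeq (GRCh38.p14). miR-200b-3p and miR-429 have the same seed as miR-200c-3p, whereas miR-141-3p and miR-200a-3p form the other seed group of the family.
hsa-miR-200c-3p: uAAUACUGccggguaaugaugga
hsa-miR-200b-3p: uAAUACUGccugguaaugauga
hsa-miR-429: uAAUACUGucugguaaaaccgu
hsa-miR-141-3p: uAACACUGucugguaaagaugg
hsa-miR-200a-3p: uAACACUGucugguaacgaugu
hsa-miR-222-5p: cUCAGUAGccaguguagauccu
hsa-miR-512-3p: aAGUGCUGucauagcugagguc

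The 7-base word complementary to each seed was searched on the transcript strand of the 3′ UTR of 1 canonical transcript per coding gene (GENCODE release 44, 19515 UTRs). The word of miR-200c-3p, CAGTATT, was held by 3132 UTRs (16%). ZEB1 lies at chr10:31318495-31529814 (GRCh38, plus strand), and its 3′ UTR of 2540 bases held the word 6 times. Of 2406 UTRs within 20% of that length, 636 (26.4%) held it at least once, and ZEB1 was the only 1 of them with 6 or more. ZEB2 (chr2:144364364-144521057, minus strand) held it 5 times, and FN1 (chr2:215360440-215436073, minus strand) held it 2 times in a UTR of 690 bases, a length at which 6.48% of UTRs held it at all. SNAI2 had 1. The word was not found in the 3′ UTRs of SNAI1 (chr20:49982980-49988886, plus strand), CDH1 (chr16:68737292-68835537, plus strand), EPCAM (chr2:47345158-47387601, plus strand), VIM (chr10:17228241-17237593, plus strand) or CDH2. The words of miR-222-5p (CTACTGA, in 9.22% of all UTRs) and miR-512-3p (CAGCACT, in 19.6%) were in the 3′ UTR of none of the 9 genes, and that of miR-141-3p and miR-200a-3p (CAGTGTT, in 18.2%) was found 3 times in ZEB1 and 4 times in ZEB2. A match describes these letters and is not a measured binding site.

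The 6 matches in ZEB1 and the 2 in FN1 are printed with the match in capitals, because ZEB1 and FN1 are the measured genes that the miR-200c-3p inhibitor could release. Each window of 23 bases lies in the last part of the transcript, after the stop codon.
ZEB1 site 1, chr10:31527618-31527640: attgttttatcttatCAGTATTa
ZEB1 site 2, chr10:31527712-31527734: atgctaaatccgcttCAGTATTt
ZEB1 site 3, chr10:31528141-31528163: gtaagtgccatttctCAGTATTt
ZEB1 site 4, chr10:31528492-31528514: ctgatttttacctatCAGTATTa
ZEB1 site 5, chr10:31528562-31528584: tgtcttcaaacctggCAGTATTa
ZEB1 site 6, chr10:31529213-31529235: tcttttcatcattatCAGTATTt
FN1 site 1, chr2:215361303-215361325: gtattcaataccgctCAGTATTt
FN1 site 2, chr2:215361017-215361039: tttatcaatttttccCAGTATTt

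Library totals ranged from 3938764 to 9657063 counts, and 3 counts, taken as the floor of detection, corresponded to 0.311 to 0.762 counts per 1000000 counts of the library (CPM). This floor and the intervals of count ratios cover counting error only, since PCR copies carry no molecular identifiers, whereas the intervals of fold changes from edgeR include the spread between cultures. Scaling factors from the trimmed mean of M-values (TMM) adjust the library totals. At 24 h they were 0.795 to 1.015 in the 9 Sorafenib libraries and 0.987 to 1.06 in the 9 DMSO libraries. The ranges overlapped through MC_Sorafenib replicate 2, the highest of the Sorafenib libraries. Mitochondrial genes took 17.5% to 26.8% of the counts over all libraries. All 15 hepatocyte marker genes, among them ALB and AFP, had counts in all 30 libraries. Of 11 fibroblast and stellate cell markers, COL1A2, THY1, DCN, LUM, DES and POSTN had no count, and the summed level of the list (27.2 to 118 CPM) was mostly ACTA2. COL1A1 had counts in 26 libraries (up to 11.6 CPM), PDGFRB in 22 (up to 5.91 CPM), and COL3A1 and PDGFRA in 2 each. Of 10 endothelial and blood cell markers, VWF, KDR, TEK and CD3E had no count, and LYZ made up most of the sum (101 to 494 CPM). HBB had counts in 22 libraries (median 1.82 CPM, up to 186 CPM). CD68 had counts in 30 (up to 11.1 CPM), PECAM1 in 17 (up to 3.02 CPM), CDH5 in 8 and PTPRC in 1. In such bulk RNA, fewer cells of a type and less RNA per cell cannot be told apart. Below, a level is a TMM-scaled CPM value, and a difference is a log2 fold change from edgeR's quasi-likelihood test with its standard error (SE), called at a Benjamini-Hochberg adjusted p under 0.05 over all genes tested. Where 2 groups are said not to overlap, this is a description only. The share of all genes whose groups separate likewise was not counted.

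The 9 genes fell into 6 with counts in all 30 libraries and 3 that were near absent, and of the 6, SNAI1 lay below 3 counts in 2 libraries of M222_DMSO. FN1, which encodes the matrix protein fibronectin, had the highest level, with a median of 1730 CPM and a range of 1310 to 2510 CPM over the libraries. The hepatocyte marker AFP had the same median, 1730 CPM. CDH2 (median 127 CPM) and EPCAM (121 CPM) stood at similar levels, so that N-cadherin and EpCAM transcripts were present together. No other cell type was sequenced here, so the levels of FN1 and CDH2 do not by themselves mark a mesenchymal state. ZEB1 had a median of 31.4 CPM, CDH1 of 10.1 CPM and SNAI1 of 4.12 CPM, which placed the N-cadherin transcript above that of E-cadherin in every library. ZEB2, the paralog of ZEB1, had 5 counts in 2 libraries. VIM, the usual mesenchymal filament gene, had 18 counts in 3 libraries, of which 14 came from M512_DMSO replicate 3. SNAI2 had 56 counts in 11 libraries, of which 32 came from M222_Sorafenib replicate 1. These 3 genes did not pass the filter on low counts. Tested without that filter, none was called in any comparison (smallest adjusted p 0.404), and the counts below are of the 6 other members.

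When the 10 group means of each gene were put in order, most neighbours overlapped in their 3 values. For ZEB1 the order ran from MC_Sorafenib (61.2 CPM ± 16.2, SD, n = 3) down to M512_DMSO (20.9 CPM ± 1.34, n = 3), and 9 of 9 neighbouring pairs overlapped. The same was true of SNAI1, FN1 and EPCAM. For CDH1, M512_DMSO stood above the next group, MC_Sorafenib, without overlap, and for CDH2, M222_DMSO stood above M512_DMSO without overlap, whereas the other 8 neighbouring pairs of each overlapped.

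**Figure D1:**
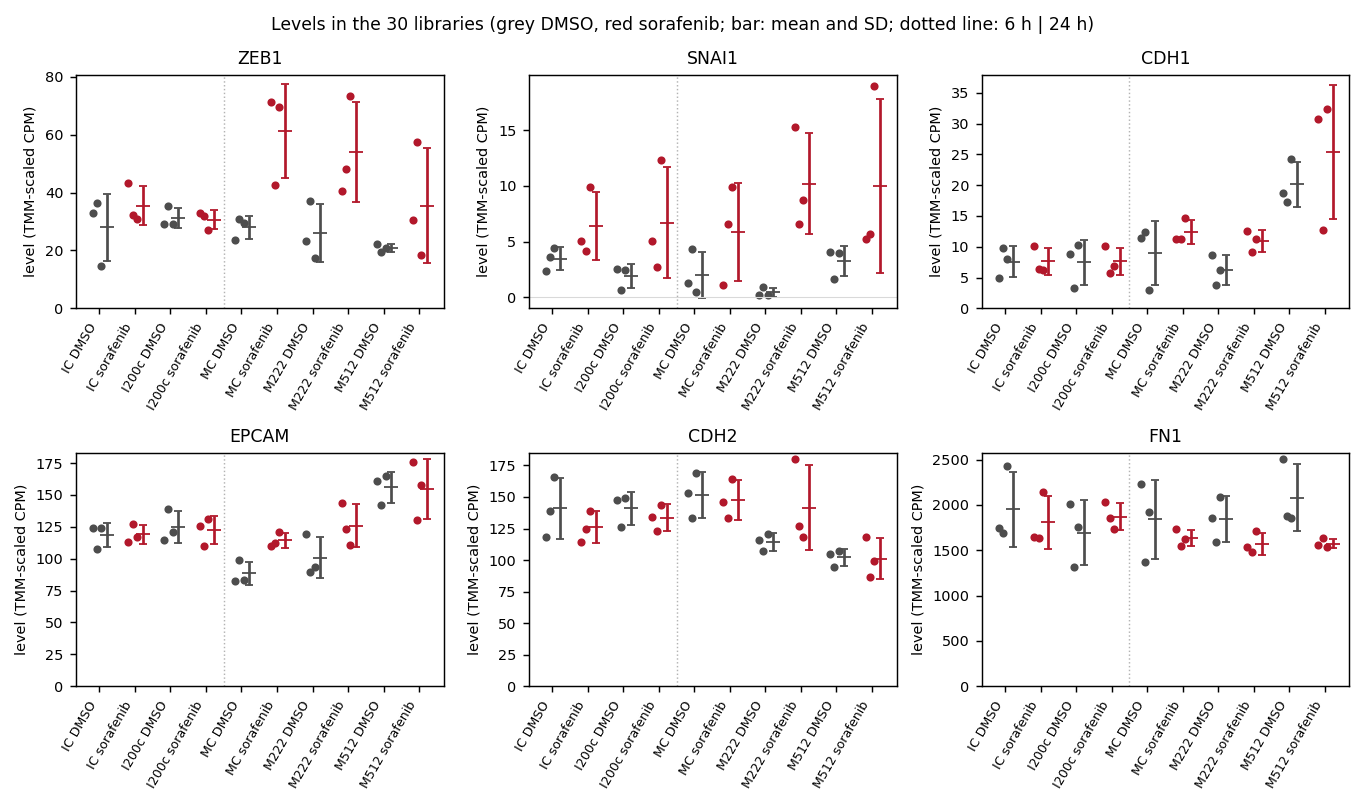
Level (TMM-scaled CPM, vertical axis from 0, for SNAI1 from just below 0) of the 6 measured genes in each of the 30 libraries, by group on the horizontal axis; points are libraries (grey DMSO, red Sorafenib), the bar beside them is the mean with its SD, and the dotted line divides the 6 h from the 24 h experiment. ZEB1 reached its highest levels, up to 73.5 CPM, under Sorafenib at 24 h, while CDH1 and EPCAM stood highest in the M512 groups.

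The first comparison asked what 24 h of Sorafenib did to the repressors. As means over the 3 transfections of that experiment, ZEB1 rose 1.96-fold (95% interval 1.48 to 2.59) and SNAI1 6.12-fold (95% interval 3.05 to 12.3), whereas the other 4 measured genes did not pass the test. These were 2 of 6 measured members called, beside 25.8% of all 13244 genes tested, so that a call as such was common at this time. The call of SNAI1, unlike that of ZEB1, was lost in the mean over MC and M512 alone, as described below.

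In the mimic control, ZEB1 had levels of 23.5, 31 and 29.4 CPM in DMSO and 71.4, 42.5 and 69.7 CPM in Sorafenib. With the miR-222-5p mimic it had 23.3, 37.1 and 17.5 CPM in DMSO and 40.4, 48.1 and 73.5 CPM in Sorafenib. With the miR-512-3p mimic it had 22.3, 19.6 and 20.8 CPM in DMSO and 30.5, 57.4 and 18.5 CPM in Sorafenib. In MC and M222 all 3 Sorafenib cultures were above all 3 DMSO cultures, while in M512 replicate 3 under Sorafenib lay below the DMSO values. The mean log2 fold change of ZEB1 over the 3 transfections was 0.97 (SE 0.195, 95% interval 0.57 to 1.37, adjusted p = 0.000656). It stayed called in each of the 18 fits that left out 1 library (0.80 to 1.11 on the log2 scale) and in the mean over MC and M512 alone (0.93, adjusted p = 0.00907), an alternative chosen after the data were seen. Within single transfections it was not called: the log2 fold change was 1.14 in MC (SE 0.337, adjusted p = 0.0689), 1.06 in M222 (SE 0.338, adjusted p = 0.0735) and 0.72 in M512 (SE 0.339, adjusted p = 0.193). With DESeq2 in place of edgeR, ZEB1 was called in MC (adjusted p = 0.0348) and M222 (adjusted p = 0.0433).

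SNAI1 is the low-abundance repressor of the set and its values scattered more. In the mimic control it had 1.27, 4.36 and 0.441 CPM in DMSO and 1.11, 6.58 and 9.87 CPM in Sorafenib. With the miR-222-5p mimic it had 0.218, 0.906 and 0.173 CPM in DMSO and 15.3, 6.58 and 8.76 CPM in Sorafenib. With the miR-512-3p mimic it had 4.06, 1.66 and 3.94 CPM in DMSO and 5.24, 5.68 and 19 CPM in Sorafenib. All Sorafenib values were above all DMSO values in M222 and M512, whereas in MC replicate 1 under Sorafenib lay among the DMSO values. The 3 M222_DMSO libraries held 2, 4 and 1 counts of SNAI1, so the size of the change there rests on few reads: 199 counts under Sorafenib against 7 in DMSO gave a ratio of 30.6 (exact 95% interval 14.6 to 77, counting error only), beside ratios of 3.45 in MC and 3.48 in M512.

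SNAI1 in M222 was the 1 member called within a single transfection under Sorafenib (log2 fold change 4.66, SE 0.955, adjusted p = 0.00559), and this fitted value depends on the prior count. It stayed called without any 1 of the 6 libraries compared. In MC the log2 fold change was 1.59 (SE 0.803, adjusted p = 0.323) and in M512 1.60 (SE 0.763, adjusted p = 0.199). The mean over the 3 transfections was 2.61 (SE 0.488, 95% interval 1.61 to 3.62, adjusted p = 0.000315). Over MC and M512 alone it was 1.60 and no longer called (adjusted p = 0.0628). Members called numbered 0 in MC, beside 2.6% of all genes tested, 1 in M222, beside 4.38%, and 0 in M512, beside 9.96%, and at an unadjusted p under 0.05 they numbered 1, 2 and 3, beside 16.9%, 19.1% and 24.2% of all genes.

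**Figure D2:**
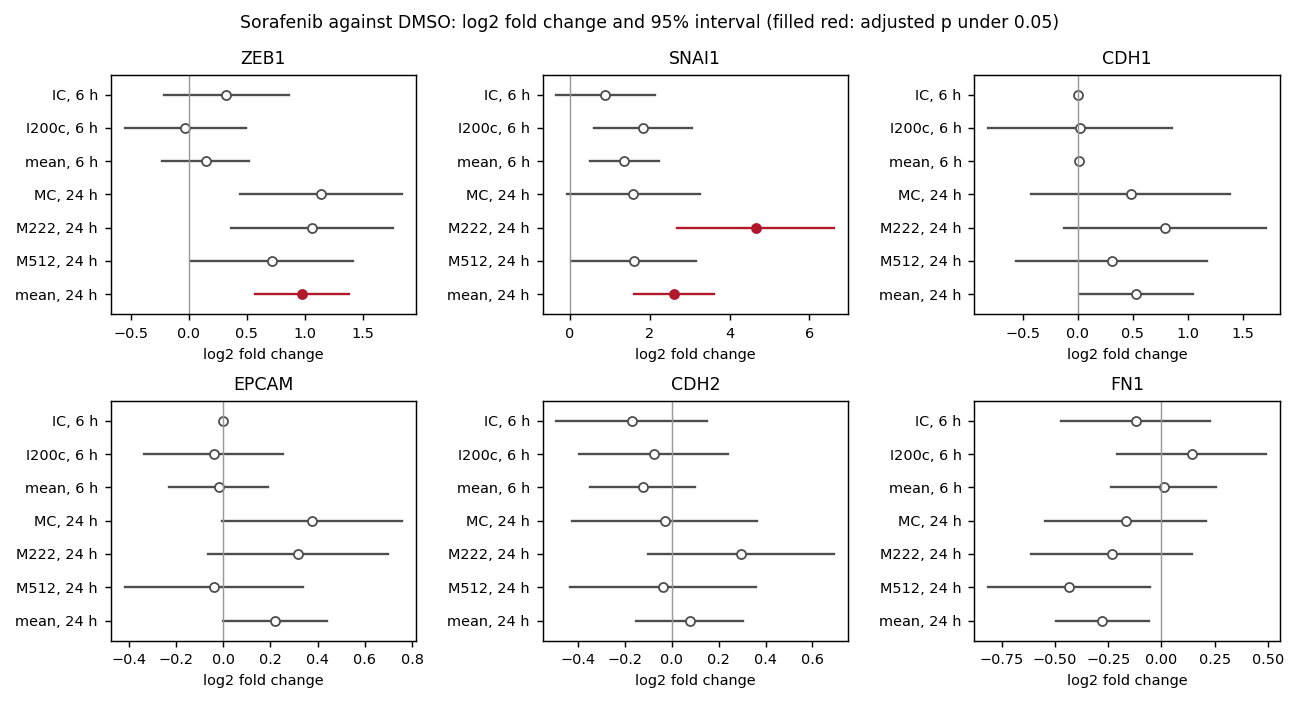
Log2 fold change of Sorafenib against DMSO (horizontal axis, its scale set per gene) for the 6 measured genes in each of the 5 transfections and as the mean at 6 h and at 24 h; lines are 95% intervals, filled red points have an adjusted p under 0.05, and points without a line lie too near 0 for an interval to be computed. ZEB1 and SNAI1 are called as means at 24 h, at 0.97 and 2.61, and SNAI1 in M222.

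At 6 h, ZEB1 was not called and its values under Sorafenib overlapped those in DMSO. With the inhibitor control it had 33, 36.3 and 14.7 CPM in DMSO and 43.3, 32.1 and 31 CPM in Sorafenib. With the miR-200c-3p inhibitor it had 29.2, 35.3 and 29.1 CPM in DMSO and 33.1, 31.8 and 27 CPM in Sorafenib. Replicate 3 of IC_DMSO was the lowest ZEB1 library of all 30. The mean log2 fold change at 6 h was 0.15 (SE 0.179, 95% interval -0.23 to 0.52, adjusted p = 0.76), and without IC_DMSO replicate 3 it was -0.000758.

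SNAI1 was higher under Sorafenib at 6 h in the fitted mean but missed the threshold. It had 2.33, 3.63 and 4.4 CPM in IC_DMSO and 5.06, 4.18 and 9.9 CPM in IC_Sorafenib. It had 2.53, 0.616 and 2.46 CPM in I200c_DMSO and 5.03, 2.74 and 12.3 CPM in I200c_Sorafenib. The groups overlapped in IC and did not overlap in I200c. The log2 fold change was 0.89 in IC (SE 0.589, adjusted p = 0.999), 1.83 in I200c (SE 0.591, adjusted p = 0.117) and 1.36 as the mean (SE 0.417, adjusted p = 0.0968). DESeq2 called SNAI1 in I200c (adjusted p = 0.0499) and in the mean (adjusted p = 0.0347). With edgeR 0 of 6 measured members were called in IC, I200c or the mean, beside 0.0393%, 2.28% and 2.89% of 12738 genes tested. At an unadjusted p under 0.05 the members numbered 0, 1 and 1, beside 3.78%, 15.3% and 15.4% of all genes, and with DESeq2 0, 1 and 1 were called.

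The change of the Sorafenib effect between the times was tested in a fit over all 30 libraries. For ZEB1 the effect at 24 h minus that at 6 h was 0.83 on the log2 scale (SE 0.293, 95% interval 0.23 to 1.42, adjusted p = 0.0687), and for SNAI1 it was 1.28 (SE 0.688, adjusted p = 0.263). None of the 6 measured members was called, beside 9.41% of 13800 genes, and at an unadjusted p under 0.05 there was 1, beside 23.2%. DESeq2 called ZEB1 (adjusted p = 0.0468). From the lists described below, 2 of 48 epithelial genes, 4 of 28 mesenchymal markers, 3 of 24 transcription factors and corepressors 5 of 35 signalling genes and 6 of 32 miR-200 targets were called in this contrast. Of 15 hepatocyte markers 4 were called, with a smaller or more negative effect at 24 h (median -0.53). Time, kind of control oligonucleotide and experiment cannot be told apart in this contrast.

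Neither epithelial surface gene fell as ZEB1 rose at 24 h. CDH1 had 11.5, 12.4 and 2.94 CPM in MC_DMSO and 11.3, 11.2 and 14.6 CPM in MC_Sorafenib. It had 8.6, 3.85 and 6.24 CPM in M222_DMSO and 12.5, 9.07 and 11.3 CPM in M222_Sorafenib. It had 18.8, 17.3 and 24.3 CPM in M512_DMSO and 30.8, 12.8 and 32.4 CPM in M512_Sorafenib. The groups did not overlap in M222, where Sorafenib was the higher, and overlapped in MC and M512. The mean log2 fold change of CDH1 was 0.53 (SE 0.251, 95% interval 0.0087 to 1.04, adjusted p = 0.127), and that of EPCAM was 0.22 (SE 0.106, 95% interval -0.0014 to 0.44, adjusted p = 0.136). CDH1 was called without M512_Sorafenib replicate 2 (0.64, adjusted p = 0.0498).

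CDH2 and FN1, grouped here as mesenchymal structural genes, did not follow the repressors upward either. CDH2 had a mean log2 fold change of 0.08 at 24 h (SE 0.111, 95% interval -0.15 to 0.30, adjusted p = 0.655). FN1 had 2230, 1370 and 1920 CPM in MC_DMSO and 1730, 1550 and 1620 CPM in MC_Sorafenib. It had 1850, 1590 and 2090 CPM in M222_DMSO and 1530, 1480 and 1710 CPM in M222_Sorafenib. It had 2510, 1880 and 1850 CPM in M512_DMSO and 1560, 1630 and 1530 CPM in M512_Sorafenib. Sorafenib was below DMSO without overlap in M512 alone. The mean log2 fold change of FN1 was -0.28 (SE 0.106, 95% interval -0.50 to -0.06, adjusted p = 0.0555), and the call depended on the method: with DESeq2 it was -0.29 (adjusted p = 0.0255), and with total counts in place of TMM it was -0.42 (adjusted p = 0.00455), a scaling under which the median of all genes also moved, from -0.0382 to -0.173. At 6 h the mean log2 fold changes of CDH1, CDH2, FN1 and EPCAM lay between -0.12 and 0.02, with adjusted p from 0.638 to 0.992.

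The other genes of the transition and of its signalling were read from lists chosen with earlier results of these data known. Their counts stand beside the 25.8% of all genes called at 24 h (1779 higher, 1638 lower) and the median log2 fold change of all genes, -0.0382. With total counts in place of TMM, 1206 genes were called higher and 2460 lower, and the splits of the lists of the transition and its signalling are given under that scaling too. Of 48 tested genes of epithelial junctions and identity, 9 rose and 4 fell (median 0.114), and with total counts 3 rose and 7 fell (median -0.0259). The epithelial transcription factor ELF3 (2.17, adjusted p = 2.79e-07), occludin (OCLN, 2.06, adjusted p = 0.00011), the claudin CLDN4 (0.57) and the desmosomal plakophilin PKP2 (0.53) rose. Epiplakin (EPPK1, -2.0, adjusted p = 1.37e-05), PKP4 (-0.52), the keratin KRT19 (-0.38) and the tight junction scaffold TJP3 (-1.11) fell. Which direction prevailed in this list therefore depended on the scaling.

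Of 28 tested mesenchymal markers, 4 rose and 4 fell (median 0.0204), the same numbers as with total counts (median -0.111). The matrix-associated protein gene CCN1 (3.04, adjusted p = 6.37e-07), and the actin-binding TAGLN (0.60) and TAGLN2 (1.02) were among those that rose. Smooth muscle actin ACTA2 (-0.54), the filament gene NES (-0.87), LGALS1 (-0.44) and MMP15 (-0.69) fell.

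Among 24 tested transcription factors and corepressors of the transition besides the members, 8 rose and 1 fell (median 0.163), and with total counts 5 rose and 2 fell (median 0.0255). The inhibitors of helix-loop-helix factors ID3 (1.62, adjusted p = 2.29e-06) and ID2 (0.90), the LIM protein AJUBA (0.77) and FBXW7 (0.66), which targets proteins for degradation, rose, and SOX9 (-0.73) fell. Of 35 tested genes of TGF-beta and bone morphogenetic protein (BMP) signalling, 8 rose and 3 fell (median 0.0863), and with total counts 7 rose and 5 fell (median -0.055). Those that rose were led by SMAD7 (2.38, adjusted p = 3.41e-07) and SKIL (1.21), both inhibitors of the pathway, the activin subunit INHBE (1.85) and the receptor ACVR2A (1.23). The TGF-beta receptors TGFBR2 (-0.92) and TGFBR3 (-0.76) and the corepressor TGIF2 (-0.43) fell. SMAD7 (1.44, adjusted p = 1.97e-05), ID2 (0.97), ID3 (0.90) and TGFBR2 (-0.84) were called in the same direction at 6 h.

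Of the 31 tested literature targets of miR-200b, miR-200c and miR-429, ZEB1 among them, 6 rose and 3 fell at 24 h (median -0.0418), and with total counts 4 rose and 4 fell. The growth factor gene VEGFA (1.94), the phosphatase gene DUSP1 (2.87) and the Notch ligand JAG1 (1.34) rose, and PPM1F (-0.59), the polycomb gene SUZ12 (-0.38) and TCF7L1 (-0.74) fell. At 6 h 0 of 31 were called.

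Markers of hepatocytes and of other cells moved along with these changes. Of 15 hepatocyte markers, 1 rose and 8 fell at 24 h (median -0.338), led by HNF4A (-1.0, adjusted p = 2.41e-06) and FGA (-1.11, adjusted p = 2.48e-06), and at 6 h 1 rose and 0 fell (median 0.0746). With total counts 1 rose and 10 fell at 24 h (median -0.463). Of 3 tested fibroblast markers and 3 tested endothelial and blood cell markers, ACTA2 and LYZ (-0.35, adjusted p = 0.0373) fell at 24 h, 1 called of each list under either scaling. Their part in the changes of ZEB1 and SNAI1 was not tested.

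The next comparison asked whether blocking miR-200c-3p raised ZEB1, its best known target, or any other member. No difference was detectable. ZEB1, whose values are given above, averaged 28 CPM ± 11.7 in IC_DMSO, 31.2 CPM ± 3.6 in I200c_DMSO, 35.5 CPM ± 6.81 in IC_Sorafenib and 30.6 CPM ± 3.2 in I200c_Sorafenib (SD, n = 3 each). The groups overlapped in both treatments. The log2 fold change of I200c against IC was 0.16 in DMSO (SE 0.256, 95% interval -0.38 to 0.69, adjusted p = 0.991), -0.20 in Sorafenib (SE 0.251, 95% interval -0.72 to 0.33, adjusted p = 1) and -0.02 as the mean (SE 0.179, 95% interval -0.39 to 0.35, adjusted p = 0.999). The interval of the mean leaves room for a rise of up to 0.35 on the log2 scale. The sign in DMSO turned without IC_DMSO replicate 3, to -0.13.

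FN1, the other measured member with matches to the seed, had log2 fold changes of -0.20 in DMSO (SE 0.168, 95% interval -0.55 to 0.15) and 0.06 in Sorafenib (SE 0.168, 95% interval -0.29 to 0.42). SNAI1 had -0.87 (SE 0.622) and 0.07 (SE 0.55), and the remaining values of CDH1, CDH2 and EPCAM lay between -0.0047 and 0.10. Members called numbered 0 of 6 in DMSO, in Sorafenib and as the mean, by edgeR, by DESeq2 and at an unadjusted p under 0.05, which 5.24%, 2.14% and 4.38% of all genes met. Over all 12738 genes the percent called was 0.0157 in DMSO (2 genes), 0 in Sorafenib and 0 in the mean.

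A list of 41 targets of miR-200b, miR-200c and miR-429 from the literature was read in the same way, of which 35 held CAGTATT in the 3′ UTR and 31 were tested. None was called with the inhibitor, and at an unadjusted p under 0.05 there were 2 in DMSO and 0 in Sorafenib. The median log2 fold change of the list was -0.0506 in DMSO, where that of all genes was 0.00981, and -0.0186 in Sorafenib, where that of all genes was 0.00625. In DMSO 15 genes were higher and 16 lower. Over all tested genes with a UTR in the annotation, the mean inhibitor effect had a median log2 fold change of 0.00519 for 8881 genes without the word, 0.00141 for 1615 genes with 1 match and 0.00872 for 508 genes with 2 or more. For the mimics, each with its own word, these 3 medians of the mean effect were 0.0136, -0.179 and -0.251 with M222. With M512 they were 0.032, -0.0613 and -0.0807. MIR200CHG, the transcript that hosts miR-200c and miR-141, had 0 counts in all 30 libraries, which allows up to 0.311 to 0.762 CPM, and the mature miRNA is not counted by these libraries. The paper detected mature miR-200c-3p in HepG2 cells by PCR and reported that Sorafenib raised it at 6 h.

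**Figure D3:**
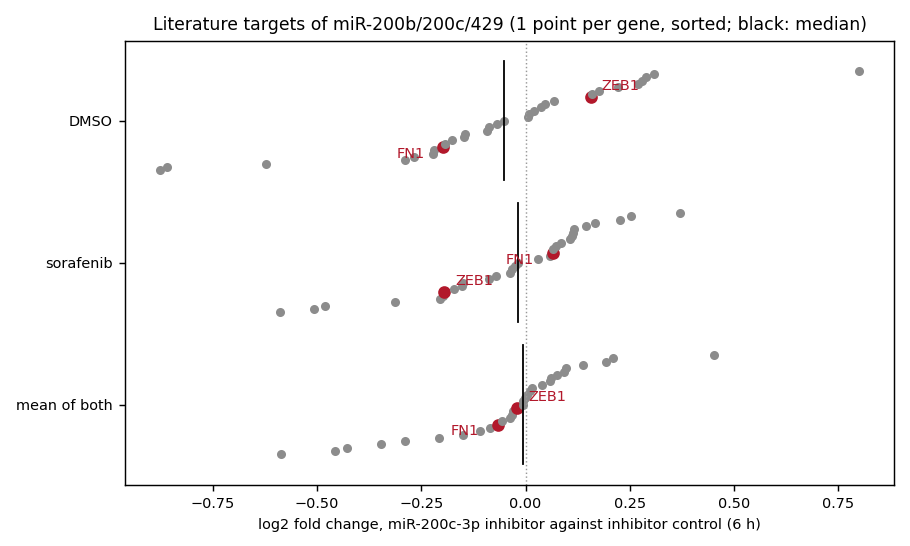
Log2 fold change of the miR-200c-3p inhibitor against the inhibitor control (horizontal axis) for the 31 tested literature targets of the seed family, in DMSO, in Sorafenib and as the mean; each point is a gene, sorted within its row, the black line is the median, and ZEB1 and FN1 are marked in red. The points lie on both sides of 0 and the medians are -0.0506, -0.0186 and -0.00606.

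The miR-222-5p mimic was compared with the mimic control, whose 6 cultures also serve as the control of the miR-512-3p mimic. None of the 6 measured members was called in DMSO, in Sorafenib or as the mean by edgeR or DESeq2, beside 0%, 0% and 0.483% of 13244 genes, and at an unadjusted p under 0.05 they numbered 2, 0 and 0, beside 5.56%, 6.04% and 9.88% of all genes. The 2 were SNAI1 and CDH2 in DMSO. SNAI1 in DMSO stood at 0.432 CPM ± 0.411 with the mimic and 2.02 CPM ± 2.07 with its control (SD, n = 3 each), with overlap, and the fitted log2 fold change was -2.27 (SE 0.978, adjusted p = 0.834). CDH2 had 116, 107 and 121 CPM in M222_DMSO and 153, 133 and 169 CPM in MC_DMSO, without overlap, and a log2 fold change of -0.42 (SE 0.192, adjusted p = 0.891). ZEB1 had -0.17 as the mean of both treatments (SE 0.237, 95% interval -0.66 to 0.32, adjusted p = 0.879). From the lists, the tight junction gene MARVELD2 (-1.36, adjusted p = 0.0173) and the polarity gene LLGL2 (-0.71, adjusted p = 0.0198) fell as the mean of both treatments, 2 of 48 tested epithelial genes.

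The miR-512-3p mimic gave the only calls of members among the 3 oligonucleotides tested against their controls. As the mean over both treatments, EPCAM rose 1.52-fold and CDH2 fell to 0.67 of its control level, so that an epithelial surface gene and the N-cadherin gene moved in opposite directions. These were 2 of 6 measured members, beside 2.67% of 13244 genes. The control stood at an extreme for both genes. Of the 10 groups, MC_DMSO had the lowest mean of EPCAM (88.5 CPM, beside 118 CPM in IC_DMSO) and the highest of CDH2 (151 CPM). M512_DMSO had the highest mean of EPCAM (156 CPM) and M512_Sorafenib the lowest of CDH2 (101 CPM). The part of the control's level in these calls was not tested. EPCAM had 161, 142 and 165 CPM in M512_DMSO and 82.9, 98.8 and 83.7 CPM in MC_DMSO. Under Sorafenib it had 176, 130 and 158 CPM with the mimic and 110, 112 and 121 CPM with the control. The mimic was higher without overlap in both treatments. The log2 fold change was 0.82 in DMSO (SE 0.186, adjusted p = 0.0407), 0.40 in Sorafenib (SE 0.184, adjusted p = 0.419) and 0.61 as the mean (SE 0.131, 95% interval 0.34 to 0.88, adjusted p = 0.0128). The mean stayed called in each of 12 fits that left out 1 library (adjusted p 0.00496 to 0.0362). The call in DMSO, the 1 member called there beside 0.634% of all genes, was lost without any 1 of the 6 libraries compared (log2 fold change 0.78 to 0.93, adjusted p 0.0588 to 0.232) and with total counts in place of TMM (0.78, adjusted p = 0.0693).

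CDH2 had 105, 94.2 and 107 CPM in M512_DMSO and 153, 133 and 169 CPM in MC_DMSO. Under Sorafenib it had 118, 86.4 and 99.3 CPM with the mimic and 146, 133 and 164 CPM with the control. The mimic was lower without overlap in both treatments. The log2 fold change was -0.57 in DMSO (SE 0.192, adjusted p = 0.22), -0.58 in Sorafenib (SE 0.193, adjusted p = 0.207) and -0.58 as the mean (SE 0.136, 95% interval -0.86 to -0.30, adjusted p = 0.0227). The call of the mean was lost in 6 of 12 fits without 1 library, namely without MC_DMSO replicate 1 or 3, MC_Sorafenib replicate 3, or any 1 of the 3 M512_DMSO replicates, with adjusted p of 0.0558 to 0.0832.

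CDH1 and ZEB1 differed in opposite directions with the miR-512-3p mimic and missed the threshold. CDH1, whose values are given above, was higher with the mimic without overlap in DMSO and with overlap in Sorafenib, and its mean log2 fold change was 1.09 (SE 0.306, 95% interval 0.46 to 1.72, adjusted p = 0.0558). DESeq2 called it (1.09, adjusted p = 0.0186). ZEB1 was lower with the mimic without overlap in DMSO and with overlap in Sorafenib, and its mean was -0.63 (SE 0.238, 95% interval -1.12 to -0.14, adjusted p = 0.172). Without M512_Sorafenib replicate 2, both were called, CDH1 at 1.25 (adjusted p = 0.0178) and ZEB1 at -0.88 (adjusted p = 0.0296). That library had the lowest TMM factor of the 30 (0.795) and 24.2% mitochondrial counts, beside factors of 0.901 and 0.94 and 24.2% and 17.5% in replicates 1 and 3 of its group, and the part of these differences in the calls was not tested. FN1 (0.04, SE 0.13, adjusted p = 0.917) and SNAI1 (0.74, SE 0.548, adjusted p = 0.539) were not called. In Sorafenib alone 0 members were called by edgeR or DESeq2, beside 0.355% of all genes, and 4 had an unadjusted p under 0.05, beside 11.1%.

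Of the lists, the following genes were called with the miR-512-3p mimic as the mean of both treatments, beside 2.67% of all genes. Of 48 tested epithelial genes, the junctional adhesion gene F11R (0.74, adjusted p = 0.0227) rose and CD24 (-1.70, adjusted p = 0.00689) and EPPK1 (-1.32, adjusted p = 0.0414) fell. Of 28 mesenchymal markers, ACTA2 fell (-1.14, adjusted p = 5.69e-05). Of 35 genes of TGF-beta and BMP signalling, the ligand BMP4 (0.84, adjusted p = 0.00132), the activin antagonist FST (0.76, adjusted p = 0.0143) and the receptor TGFBR3 (1.00, adjusted p = 0.0227) rose. Of 31 literature targets of the miR-200 seed family, SEC23A (-0.57, adjusted p = 0.0322) fell. None of the 24 transcription factors and corepressors was called, with 3 at an unadjusted p under 0.05, beside 16.2% of all genes. Among markers of other cells, LYZ rose (0.65, adjusted p = 0.0227), a call lost with total counts, and of 15 hepatocyte markers FGB fell (-0.63, adjusted p = 0.00678). Their part in the changes of EPCAM and CDH2 was not tested.

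**Figure D4:**
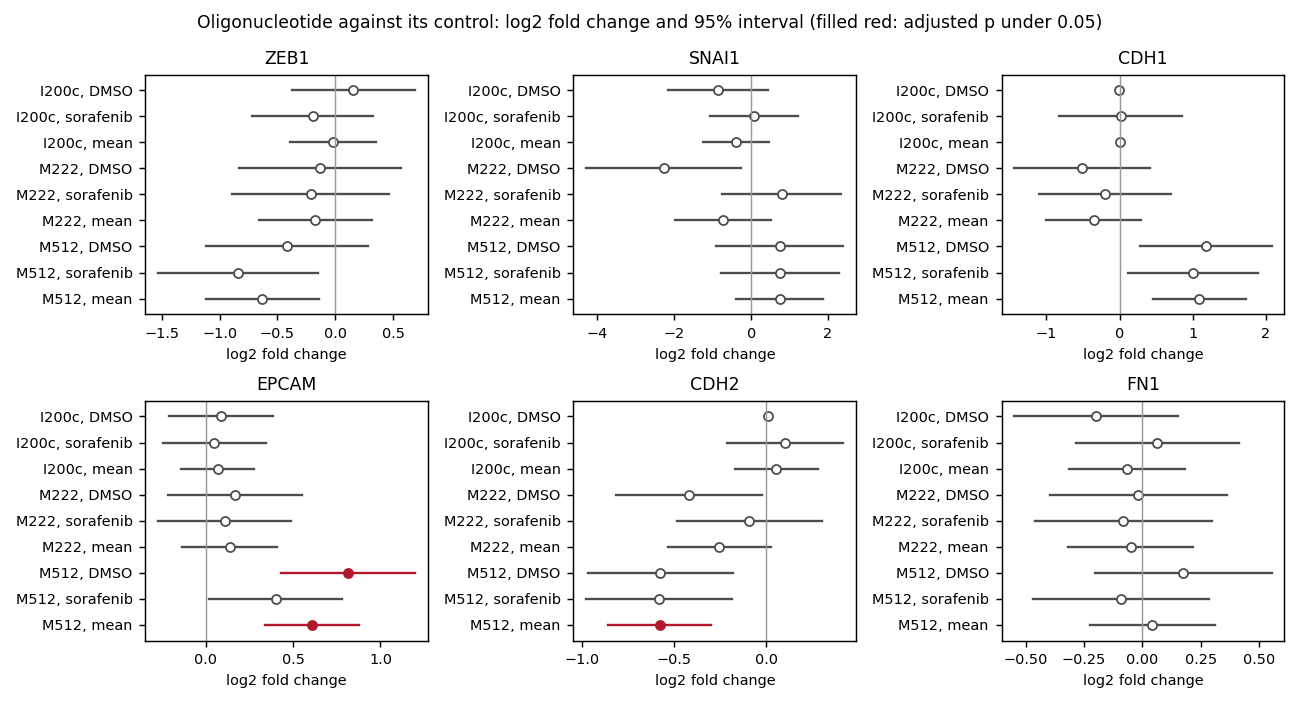
Log2 fold change of each oligonucleotide against its control (horizontal axis, its scale set per gene) for the 6 measured genes, in DMSO, in Sorafenib and as the mean of both; lines are 95% intervals, filled red points have an adjusted p under 0.05, and points without a line lie too near 0 for an interval to be computed. EPCAM in M512 (0.82 in DMSO, 0.61 as the mean) and CDH2 in M512 (-0.58 as the mean) are called.

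Whether an oligonucleotide altered the response to Sorafenib was tested as an interaction. None of the 6 measured members was called with I200c, M222 or M512 by edgeR or DESeq2, beside 0%, 0% and 0.00755% of the genes tested, and at an unadjusted p under 0.05 they numbered 0, 1 and 0, beside 3.24%, 1.96% and 5.04%. The 1 was SNAI1 with the miR-222-5p mimic, whose response exceeded that in the mimic control by 3.06 on the log2 scale (SE 1.23, 95% interval 0.53 to 5.60, adjusted p = 1). For ZEB1 the interactions were -0.35 with I200c (SE 0.359), -0.08 with M222 (SE 0.473) and -0.42 with M512 (SE 0.475). Between the control cultures of the experiments, MC_DMSO against IC_DMSO, 0 members were called by edgeR or DESeq2, beside 0.319% of genes, and 1 had an unadjusted p under 0.05, beside 11.4%, EPCAM (-0.42, SE 0.161, adjusted p = 0.261), which had 82.9, 98.8 and 83.7 CPM in MC_DMSO and 124, 108 and 124 CPM in IC_DMSO, without overlap. Of 28 mesenchymal markers 1 was called higher in MC_DMSO, ACTA2 (0.98, adjusted p = 0.0277), and 1 lower, with a median of -0.211. Of 15 hepatocyte markers 14 were higher there (median 0.262), and 1, FGA (1.22, adjusted p = 0.00237), was called.

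Transcripts that overlap or neighbour the members were low, and so were MIR222HG and SNAI3-AS1, which overlap none of them. ZEB1-AS1, which overlaps ZEB1 on the other strand, had a median of 1.52 CPM and EPCAM-DT one of 3.61 CPM, while ZEB2-AS1 and VIM-AS1 had no count. MIR222HG, the host of miR-222, had a median of 1.43 CPM, and SNAI3-AS1 (1.28 CPM) fell with Sorafenib at 24 h (-1.75, adjusted p = 0.0489). The strand setting of the counting is not given in the sources used here. As a description over 10 group means, which share libraries and scaling, the genes whose log2 levels ran most like those of ZEB1 included KLF11 (Pearson's r = 0.966) and the pseudogene B3GNTL1P1 (0.937, at a median of 0.447 CPM). For SNAI1 they were ENSG00000279133 (0.979), CDK11B (0.957) and NIPA1 (0.954), for EPCAM they were PRPF8 (0.964), E2F6 and CHCHD4 (0.947 each), and for CDH2 they were KMT2A (0.958), RAPGEF6 (0.928) and USP47 (0.919).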

How the data were processed

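Libraries of 30 HepG2 cultures were made with the QuantSeq 3′ mRNA-Seq FWD kit and sequenced by the authors. The deposited count table holds raw read counts per Ensembl gene on GRCh38. The submitters' processing notes name DRAGEN, STAR, HTSeq and DESeq2, and the annotation release and strand setting are not given in the sources used here. A normalized table was not used. Groups came from the sample labels. The 92 rows that name no gene (3 counts in all) were left out, and symbols were matched for 56104 identifiers.

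Levels were TMM-scaled over all 30 libraries. For tests, counts were TMM-scaled within each fit, filtered with filterByExpr and tested two-sided with edgeR 4.0.16 (glmQLFit and glmQLFTest, 1 coefficient per group, R 4.3.3) in separate fits of the 12 libraries at 6 h and the 18 at 24 h, or of all 30 where both times entered, with Benjamini-Hochberg adjustment over all genes and a threshold of 0.05. The study names DESeq2 but not its contrasts. Alternatives were DESeq2 1.42.0, total counts, no filter, the replicate number as a block, the 6 libraries of 1 transfection alone and leaving out each library. The common biological coefficient of variation was 0.241 at 6 h and 0.356 at 24 h. The scripts were tested on simulated data. For Sorafenib in I200c, 17 of 149 DESeq2 calls and 8 of 132 edgeR calls there fell on unchanged genes. For Sorafenib in M222 they were 20 of 125 and 3 of 92. For MC_DMSO against IC_DMSO they were 11 of 111 and 4 of 92. DESeq2 also recovered more of the changed genes. Replicates differed by more than sampling noise in all 30 pairs (chi-square per degree of freedom 4.54 to 66.2).

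The members and gene lists were chosen with earlier results of these data known. The 9 members were named throughout. From each list, called genes only were named, at most the 4 with the smallest p in each direction and comparison, together with host and antisense transcripts. Likeness was Pearson's r over group means of log2 CPM with a prior count of 2, for ZEB1 and each called member. A few genes that this rule would name are not reported here.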

Additional observations from a re-analysis of the deposited data

How the results depend on the processing

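The number of members called changed as follows. With DESeq2 and, separately, with no filter on low counts it was 1 for Sorafenib in I200c (SNAI1), 1 in MC (ZEB1), 2 in M222 (ZEB1 and SNAI1), 1 for the mean at 6 h (SNAI1) and 1 for the effect at 24 h minus that at 6 h (ZEB1), and 3 for the mean M512 effect (CDH1 added). It was 3 for the mean at 24 h with DESeq2, total counts or the replicate block (FN1 added). In the 6 libraries of MC alone it was 1 (ZEB1, adjusted p = 0.0496). With total counts it was 1 for Sorafenib in M512 (FN1, -0.63, adjusted p = 0.0252) and 0 for M512 against MC in DMSO. With the mean at 24 h taken over MC and M512 alone, chosen after the data were seen, it was 1 (ZEB1). Leaving out 1 library gave 0 to 1 in MC (ZEB1, without MC_Sorafenib replicate 2, 1.37, adjusted p = 0.028), 1 to 2 in M222 (ZEB1, without M222_DMSO replicate 2, 1.43, adjusted p = 0.0249) and 0 to 1 in M512 (ZEB1, without M512_Sorafenib replicate 3, 1.03, adjusted p = 0.0499). It gave 0 to 1 for the mean at 6 h (SNAI1, without I200c_Sorafenib replicate 2, 1.55, adjusted p = 0.0486), 2 to 3 for the mean at 24 h (FN1 without MC_DMSO replicate 2, -0.30, and CDH1 without M512_Sorafenib replicate 2, 0.64), and 0 to 1 for the effect at 24 h minus that at 6 h (ZEB1, without IC_DMSO replicate 3, MC_Sorafenib replicate 2, M222_DMSO replicate 2 or M512_Sorafenib replicate 3, up to 0.97). It gave 0 to 0 for M512 against MC in DMSO and 1 to 4 for the mean M512 effect, where 4 was reached without M512_Sorafenib replicate 2. The sign of ZEB1 turned in 4 results whose log2 fold change lay between -0.03 and 0.16. Leave-one-out ranges were -0.087 to 0.0852 for Sorafenib in I200c, -0.000758 to 0.26 for the mean at 6 h, -0.133 to 0.384 for I200c against IC in DMSO and -0.164 to 0.0923 for the mean inhibitor effect, which was 0.0082 with the replicate block. Apart from that sign, the replicate block changed 1 call, FN1 in the mean at 24 h (-0.27, adjusted p = 0.0347). Correlations of same-numbered deviations ran from -0.109 to 0.198, and 17 of 18 libraries at 24 h and 5 of 12 at 6 h correlated best with their own number. Some deviation shared by replicate number was thus present at 24 h, and the main test held no term for it. The causes of these changes were not tested. ZEB2, VIM and SNAI2 were too rare at this depth to pass the filter, and SNAI1 in M222_DMSO rested on 7 counts.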
